A study of Mus musculus with 10 samples.

Results

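Transcripts of 7 genes of the opioid system were examined in mouse hippocampal CA3: the receptor genes Oprd1, Oprm1, Oprk1 and Oprl1 and the peptide precursor genes Penk, Pdyn and Pnoc. They were taken by gene symbol from the 18453 genes counted in each library, and all 7 were found. The family was selected on its CPM (counts scaled by TMM to a common library size) in the comparison of Mef2c shRNA with scramble libraries. Its differences between groups are therefore given as a description, without a test of the family. Calls of its members come from the fit over all genes. Kept or lost, they describe the values used for the selection and do not support a difference. The study compared 10 CA3 libraries of C57BL/6J mice given adeno-associated virus by stereotaxic surgery in CA3 of both hemispheres. In 5 libraries (the scramble libraries) the virus carried AAV-shRNA(scramble). In the other 5 (the Mef2c shRNA libraries) it carried AAV-shRNA(mef2c), a short hairpin RNA against the transcription factor Mef2c. All 10 libraries are labelled male, although the injection protocol names both sexes; the sources used here do not give age, time after injection or the promoter that drives the hairpin. The virus was meant for pyramidal neurons, whereas the libraries hold RNA of the whole dissected field, so that fewer cells of a type and less RNA per cell cannot be told apart.

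Opioid receptors are cell surface receptors that act through inhibitory G proteins, which lower cyclic AMP, open potassium channels and close presynaptic calcium channels. Oprd1 encodes the delta receptor, Oprm1 the mu receptor, Oprk1 the kappa receptor and Oprl1 the nociceptin receptor. Their ligands are cut from large precursors at pairs of basic residues: Penk gives the enkephalins, which act on delta and mu receptors, Pdyn the dynorphins, which act on kappa receptors, and Pnoc nociceptin, the ligand of Oprl1. In the hippocampus, dynorphin is known from dentate granule cells, whose mossy fibres end in CA3, and the delta and mu receptors from inhibitory interneurons.

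The stretches that encode the active core of these peptides show what the precursor transcripts carry, so they are printed here from the GENCODE M21 transcripts (GRCm38). Each window has 27 bases in reading frame: 2 codons before the core, the core of 4 codons in capitals, the fifth codon of the peptide and 2 codons after it. The core codes for tyrosine, glycine, glycine and phenylalanine in Penk and Pdyn, and starts with phenylalanine in Pnoc. The Penk windows lie on the minus strand within chr4:4133842-4134354, the Pdyn windows on the minus strand within chr2:129688067-129688258 and the Pnoc window on the minus strand at chr14:65404872-65404898, each inside a single coding exon.
Penk copy 1: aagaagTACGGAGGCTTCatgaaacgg
Penk copy 2: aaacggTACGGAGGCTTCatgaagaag
Penk copy 3: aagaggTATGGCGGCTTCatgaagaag
Penk copy 4: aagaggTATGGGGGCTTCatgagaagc
Penk copy 5: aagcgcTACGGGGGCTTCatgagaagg
Penk copy 6: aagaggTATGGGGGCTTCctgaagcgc
Penk copy 7: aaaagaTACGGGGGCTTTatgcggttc
Pdyn copy 1: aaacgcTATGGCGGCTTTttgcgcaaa
Pdyn copy 2: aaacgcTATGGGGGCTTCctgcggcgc
Pdyn copy 3: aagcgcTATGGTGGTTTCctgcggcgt
Pnoc copy 1: aaaaggTTTGGGGGCTTCaccggggcc
The 268 codons of Penk hold 7 cores, 6 with methionine and 1 with leucine at the fifth codon. The 248 codons of Pdyn hold 3 cores, all with leucine there, and the 187 codons of Pnoc hold 1. Every core of the 3 genes follows a pair of basic codons. A second basic pair directly follows the fifth codon in 5 of the 7 Penk windows and all 3 Pdyn windows. It closes the short enkephalins of Penk, whereas dynorphins and neoendorphins can run on through that pair, and nociceptin extends beyond its core as well.

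Library totals ranged from 14701928 to 15637076 counts in the scramble and from 15669620 to 17798090 in the Mef2c shRNA libraries, so that every Mef2c shRNA library was deeper. The targeted gene, Mef2c, stood at 166, 198, 176, 312 and 175 CPM in scramble libraries 1 to 5 and at 111, 131, 121, 163 and 286 CPM in Mef2c shRNA libraries 1 to 5. Its log2 fold change of -0.34 (SE 0.30) did not pass the edgeR test (adjusted p = 0.489), and the library labelled Mef2c shRNA 5 lay above all but 1 scramble library. Mef2c stood at -0.64 (adjusted p = 0.0877) without that library, at -0.14 (0.799) without scramble library 4, and at -0.45 (0.0274, called) without both. Each of these libraries had the highest Mef2c level of its group. The fit without both thus leaves out the extremes of the value it tests, and its call is a description only. Scramble library 4 (0.417) and the library labelled Mef2c shRNA 5 (0.572) also had the highest cortical layer neuron scores (mean centred log2 CPM of markers). With that score as a covariate Mef2c stood at -0.22 (SE 0.08, edgeR adjusted p = 0.0569). Why Mef2c was high in these libraries was not tested. The labels give no batch and do not say whether libraries came from separate mice, so the p-values below speak only of library-to-library spread, which may be technical. Of 12 CA3 pyramidal neuron markers, Grik4 and Cpne4 among them, 12 were measured and 0 called, against 12.3% of all genes tested. They summed to between 608 and 650 CPM in the scramble and between 545 and 678 CPM in the Mef2c shRNA libraries.

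In the scramble libraries the precursor Penk and the receptor Oprl1 had the highest levels per length, and the receptors Oprm1 and Oprk1 the lowest. Levels were compared between genes as CPM per kb of annotated exon. Penk averaged 10.7 ± 1.28 CPM per kb (SD, n = 5) and Oprl1 10.1 ± 0.566, with overlapping ranges. Pdyn followed with 4.81 ± 0.764, below the range of Oprl1 in every library. Oprd1 (3.45 ± 0.282) and Pnoc (2.75 ± 0.293) came next, and their ranges overlapped. Oprm1 (0.112 ± 0.0555) and Oprk1 (0.0839 ± 0.0296) lay far below, again with overlapping ranges. Of the 18445 genes with an annotated length, 75.6% had a lower level than Penk, 51.3% a lower one than Oprd1 and 15.7% a lower one than Oprk1. The annotated exons of Oprm1 (31 transcripts, 8.04 kb) and Oprk1 (9.15 kb) far exceed their longest single transcripts (2.42 and 4.67 kb), so the levels of both rest on the length chosen.

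**Figure D1:**
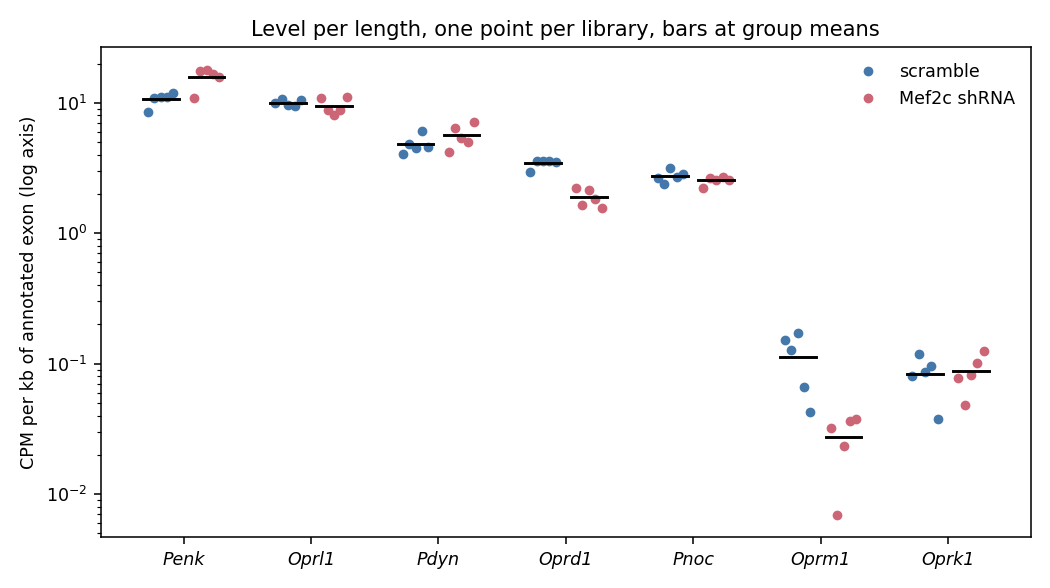
Level of each transcript in CPM per kb of annotated exon on a log axis, one point per library, with bars at the means of the 5 scramble and the 5 Mef2c shRNA libraries; genes are ordered by their scramble mean. The group means of Oprm1 and Oprk1 lie more than a full decade below those of the other 5 genes, and the groups separate for Oprd1 and Oprm1.

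Among the receptors, Oprd1 was lower in every Mef2c shRNA library than in every scramble library. Oprd1 (ENSMUSG00000050511, chromosome 4, 132110726 to 132144486, minus strand, GRCm38) stood at 11.8, 14.4, 14.5, 14.4 and 14.2 CPM in scramble libraries 1 to 5. In Mef2c shRNA libraries 1 to 5 it stood at 8.99, 6.66, 8.66, 7.34 and 6.28 CPM. The highest Mef2c shRNA library thus lay below the lowest scramble library, and the library labelled Mef2c shRNA 5, in which Mef2c itself was high, had the lowest Oprd1 level of all. The mean fell from 13.9 ± 1.14 to 7.59 ± 1.20 CPM (SD, n = 5), a level 45.3% lower, with a fitted log2 fold change of -0.87 (SE 0.12). Of 14393 genes tested, 102 had a lower fold change.

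Oprm1 (ENSMUSG00000000766, chromosome 10, 6758506 to 7038198, plus strand) was close to the limit of what these libraries can measure. Its raw counts were 18, 16, 21, 8 and 5 in scramble libraries 1 to 5 and 4, 1, 3, 5 and 5 in Mef2c shRNA libraries 1 to 5. The 68 scramble counts (95% exact Poisson interval 52.8 to 86.2) compare with 18 Mef2c shRNA counts (10.7 to 28.4), intervals that cover counting error only. On the CPM scale the groups did not overlap, but the lowest scramble library (0.344) and the highest Mef2c shRNA library (0.302) both rest on 5 counts. The mean CPM was 75.7% lower. Oprm1 did not pass the filter on low counts and so has no value in the fit; without that filter its log2 fold change was -2.02 (SE 0.52), and it met the call used below for the other genes. Its annotated exons share 96 bases with Ipcef1 on the opposite strand, which was far more abundant (36.6 ± 10.4 and 38.0 ± 18.1 CPM). No source used here gives the strand setting of the counting, so reads of that stretch cannot be assigned to either gene.

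The other two receptors showed no separation of the groups. Oprk1 (ENSMUSG00000025905, chromosome 1, 5588466 to 5606131, plus strand) had 11, 17, 12, 13 and 5 counts in scramble libraries 1 to 5 and 11, 8, 12, 16 and 19 in Mef2c shRNA libraries 1 to 5. Its log2 fold change of 0.05 (SE 0.35) leaves room for a change in either direction at this depth. Oprl1 (ENSMUSG00000027584, chromosome 2, 181715016 to 181720985, plus strand), the most abundant receptor transcript, ranged from 35.4 to 40.3 CPM in the scramble libraries. In Mef2c shRNA libraries 1 to 5 it stood at 40.6, 33.0, 30.5, 33.1 and 41.4 CPM. Libraries 2, 3 and 4 thus lay below all scramble libraries, and library 1 and the library labelled Mef2c shRNA 5 above all of them. The log2 fold change was -0.08 (SE 0.09).

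Among the precursors, Penk was higher in 4 of the 5 Mef2c shRNA libraries than in any scramble library. Penk (ENSMUSG00000045573, chromosome 4, 4133531 to 4138819, minus strand) stood at 13.9, 17.9, 17.97, 18.02 and 19.4 CPM in scramble libraries 1 to 5. In Mef2c shRNA libraries 1 to 5 it stood at 17.9, 28.6, 29.4, 27.3 and 25.7 CPM. Library 1 lay within the scramble range and the other 4, the library labelled Mef2c shRNA 5 included, lay well above it. The mean rose from 17.4 ± 2.09 to 25.8 ± 4.64 CPM (SD, n = 5), 47.9% higher, with a log2 fold change of 0.57 (SE 0.13). A noncoding transcript on the opposite strand, A830012C17Rik, shares 233 exon bases with Penk and is not among the counted genes. Neither the strand setting nor the annotation of the counting is known, so how reads there were counted cannot be told.

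Pdyn and Pnoc showed smaller differences, with overlapping groups. Pdyn (ENSMUSG00000027400, chromosome 2, 129686565 to 129699844, minus strand) stood at 11.7, 13.9, 12.9, 17.6 and 13.3 CPM in scramble libraries 1 to 5 and at 12.1, 18.5, 15.4, 14.6 and 20.5 CPM in Mef2c shRNA libraries 1 to 5. The highest values belonged to library 2 and to the library labelled Mef2c shRNA 5, and the log2 fold change was 0.22 (SE 0.15). Pnoc (ENSMUSG00000045731, chromosome 14, 65400673 to 65425472, minus strand) was the steadiest of the precursors, with 5.12 to 6.83 CPM in the scramble and 4.82 to 5.83 CPM in the Mef2c shRNA libraries. Its log2 fold change was -0.12 (SE 0.13).

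**Figure D2:**
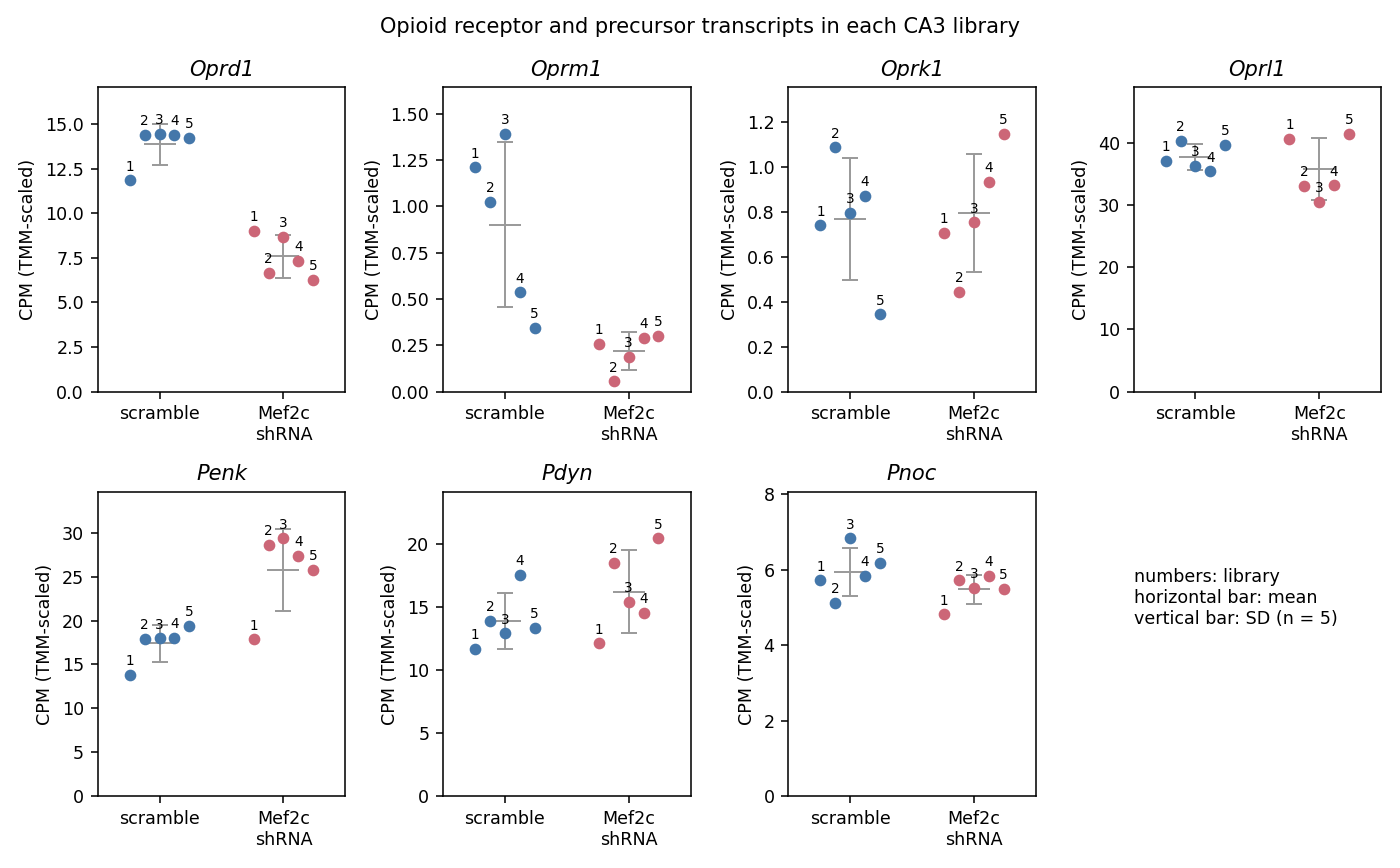
CPM (TMM-scaled) of each of the 7 transcripts in the 10 libraries, numbered within their group, with mean and SD (n = 5); each panel has its own axis from 0. All Mef2c shRNA points lie below all scramble points for Oprd1, and 4 of 5 lie above them for Penk.

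Counted over the family, 6 of the 7 genes entered the fit, and 2 met the call used here, an adjusted p under 0.05 in edgeR's quasi-likelihood test over all genes: Oprd1 lower and Penk higher. Of all 14393 genes tested, 12.3% were called, 4.66% higher and 7.61% lower. Groups did not overlap in CPM in 9.34% of tested genes, 3.3% on the higher and 6.04% on the lower side, Oprd1 among the latter. The median log2 fold change was -0.02 over the 6 genes and 0.02 over all genes tested. Since this contrast was known when the family was proposed, nothing is read from these counts.

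The group means of Penk and Oprd1, a ligand precursor and a receptor of its peptides, differed in opposite directions. Their ratio restates the differences given above and adds no support to them. The level of Penk per kb was 2.88, 3.06, 3.06, 3.08 and 3.35 times that of Oprd1 in scramble libraries 1 to 5. In Mef2c shRNA libraries 1 to 5 it was 4.89, 10.6, 8.35, 9.16 and 10.1 times as high. All 5 lay above the scramble range, with library 1 nearest to it. The corresponding ratio of Pnoc to Oprl1 overlapped between groups, at 0.221 to 0.328 and 0.207 to 0.315. That of Pdyn to Oprk1, which rests on few Oprk1 counts, overlapped too, at 40.65 to 123 and 49.5 to 132. With group means removed, Penk and Oprd1 had a Pearson r of -0.107 over the 10 libraries.

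**Figure D3:**
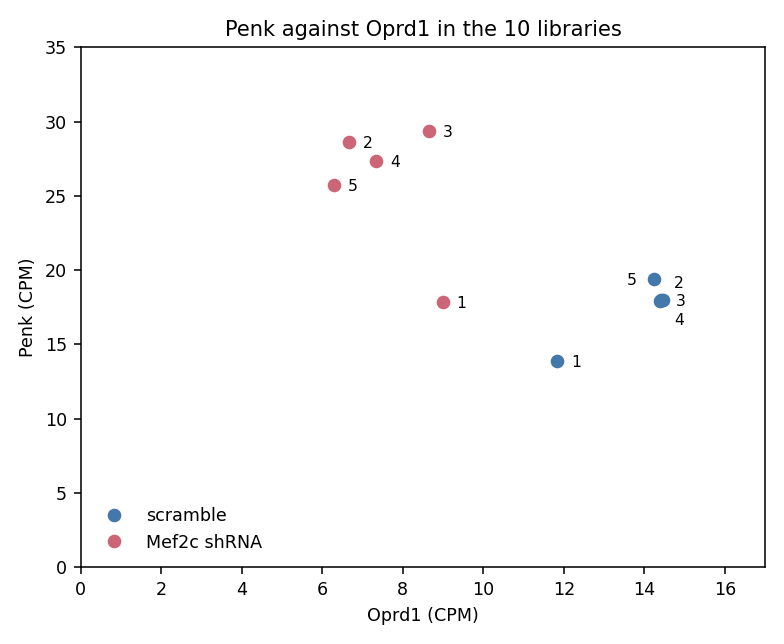
Penk against Oprd1, both in CPM, one numbered point per library, scramble in blue and Mef2c shRNA in red. Mef2c shRNA libraries 2 to 5 sit at the upper left, scramble libraries at the lower right, and Mef2c shRNA library 1 has low Oprd1 (8.99 CPM) with Penk at a scramble level (17.9 CPM).

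The 7 genes differ in length, so each difference was also fitted with a per-library correction for these properties (length and GC share, read from the longest transcript). With it, 1.65% of 14381 genes were called, 0.702% higher and 0.946% lower. Oprd1 (4.02 kb) kept its difference and its call, with a log2 fold change of -0.91 (SE 0.11). Penk (1.45 kb) shrank to 0.37 (SE 0.12) and was no longer called. Leaving out Mef2c shRNA library 1 as well, an alternative added after seeing the data, Penk stood at 0.45 (SE 0.10) and was called. The corrected values of Pdyn (0.10, SE 0.14), Pnoc (-0.24, SE 0.12), Oprl1 (-0.13, SE 0.09) and Oprk1 (0.15, SE 0.35) were not called.

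**Figure D4:**
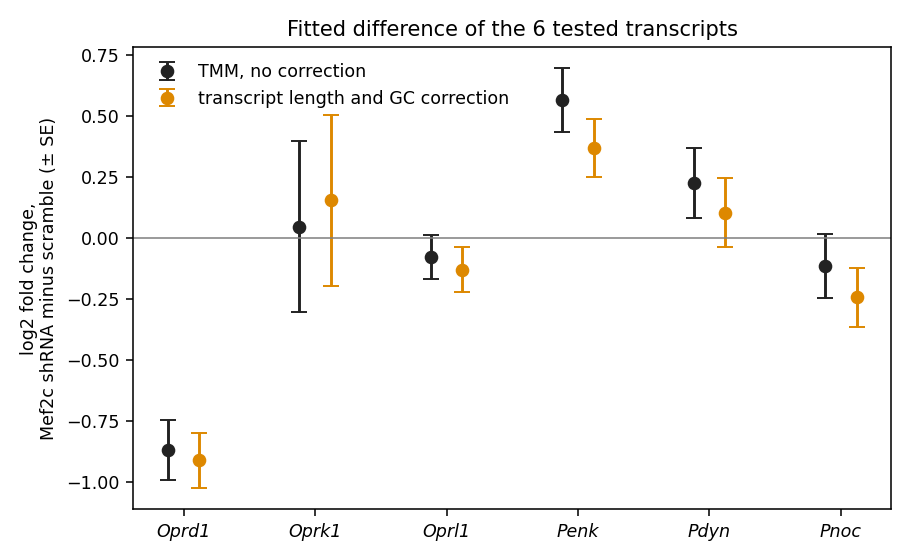
Log2 fold change (Mef2c shRNA minus scramble) with its SE for the 6 tested transcripts, in the fit without further terms (black) and with the correction for transcript length and GC content (orange). Oprd1 stays near -0.9 in both fits, and Penk drops from 0.57 to 0.37.

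Markers of the cells that express these genes moved with the groups in part. Of 18 interneuron markers listed, 17 were measured, 4 were called, all lower, and none was at 0 in all libraries. Of all 14393 genes tested, 7.61% were called lower. The called ones were Gad2, a GABA synthesising enzyme, at -0.32 (SE 0.07, edgeR adjusted p = 0.00925), the extracellular protein Reln at -0.60 (SE 0.09, 0.00189), the neuregulin receptor Erbb4 at -0.80 (SE 0.14, 0.00445) and the secreted factor Ndnf at -0.44 (SE 0.12, 0.0282). With the length and GC correction none of these 4 calls held: Gad2 stood at -0.15, Reln at -0.24, Erbb4 at -0.37 and Ndnf at -0.07, with edgeR adjusted p from 0.183 to 0.777. Gad1, Slc32a1, Sst and Pvalb were not called in the fit without it. The list summed to between 1701 and 1917 CPM in the scramble and between 1526 and 1856 CPM in the Mef2c shRNA libraries. Its score, the mean centred log2 CPM of the markers, was below all scramble libraries in Mef2c shRNA libraries 1 to 4. In the library labelled Mef2c shRNA 5 it was 0.177, within the scramble range of 0.013 to 0.193, and Oprd1 stood at 6.28 CPM. That library also had the highest cortical layer neuron score (0.572) and the lowest dentate score (-0.281). The cause of its Oprd1 level was not tested. With the interneuron score as a covariate the log2 fold change of Oprd1 was -1.003 (SE 0.168), still called, and that of Penk 0.55 (SE 0.17), no longer called.

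Microglial and interferon-stimulated genes were higher in Mef2c shRNA libraries 2, 3 and 4, which also held the 3 highest Penk levels. Both scores of library 1 lay within the scramble range. Of 14 microglia markers 6 were called, all higher, among them Tmem119 and Csf1r, and the list summed to 324 to 430 CPM in the scramble and 360 to 651 CPM in the Mef2c shRNA libraries. Of 11 interferon-stimulated genes 2 were called, both higher, and the list summed to 63.9 to 193 and 73.4 to 483 CPM. With the length and GC correction 1 microglia marker and 0 interferon-stimulated genes were called. Over all genes tested, 4.66% were called higher, and 0.702% with that correction. No marker of either list was at 0 in all libraries. In the library labelled Mef2c shRNA 5 the scores of both lists lay within the scramble range (-0.258 and -1.44). Penk stood there at 25.7 CPM, above every scramble library, and the cause was not tested. With the microglia score as a covariate the log2 fold change of Penk was 0.35 (SE 0.16), with the interferon score, added after seeing the data, 0.46 (SE 0.15), and with 1 surrogate variable 0.41 (SE 0.12), and it was not called in any of these 3 fits. Oprd1 was called in all 3, at -0.97, -0.95 and -0.87. Without Mef2c shRNA libraries 2, 3 and 4 edgeR called 0 genes, 2590 having an unadjusted p under 0.05, and Oprd1 stood at -0.87 (SE 0.17) and Penk at 0.32 (SE 0.16).

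Markers of dentate granule cells, a known source of dynorphin, overlapped between the groups in their summed level. Of 12 markers edgeR called 0, among them Prox1 at -0.14 (SE 0.14) and C1ql2 at 0.39 (SE 0.14), none was at 0, and they summed to 890 to 1047 CPM in the scramble and 763 to 1098 CPM in the Mef2c shRNA libraries. The library labelled Mef2c shRNA 5, with the highest Pdyn level, had the lowest dentate score of all (-0.281) and the highest cortical layer neuron score (0.572). Of 12 measured cortical layer neuron markers 0 were called, with sums of 757 to 905 and 695 to 905 CPM. Of the 10 markers of striatal projection neurons, which express Penk strongly, the level ran from 2.12 CPM (Adora2a) to 193 CPM (Gng7) in the scramble libraries. The dopamine receptor Drd2 averaged 2.20 ± 0.662 and 2.46 ± 0.210 CPM and Adora2a 2.12 ± 0.192 and 2.53 ± 0.768. On that list Foxp1 alone was called, lower, though not with the length and GC correction, and the list summed to 322 to 383 and 353 to 406 CPM. Of all genes tested, 12.3% were called, 7.61% lower. The part of these cell types in the differences was not tested. The interneuron and microglia scores moved with the groups in part. A fit with such a score as a covariate therefore cannot separate fewer or more cells from a change of RNA per cell.

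**Figure D5:**
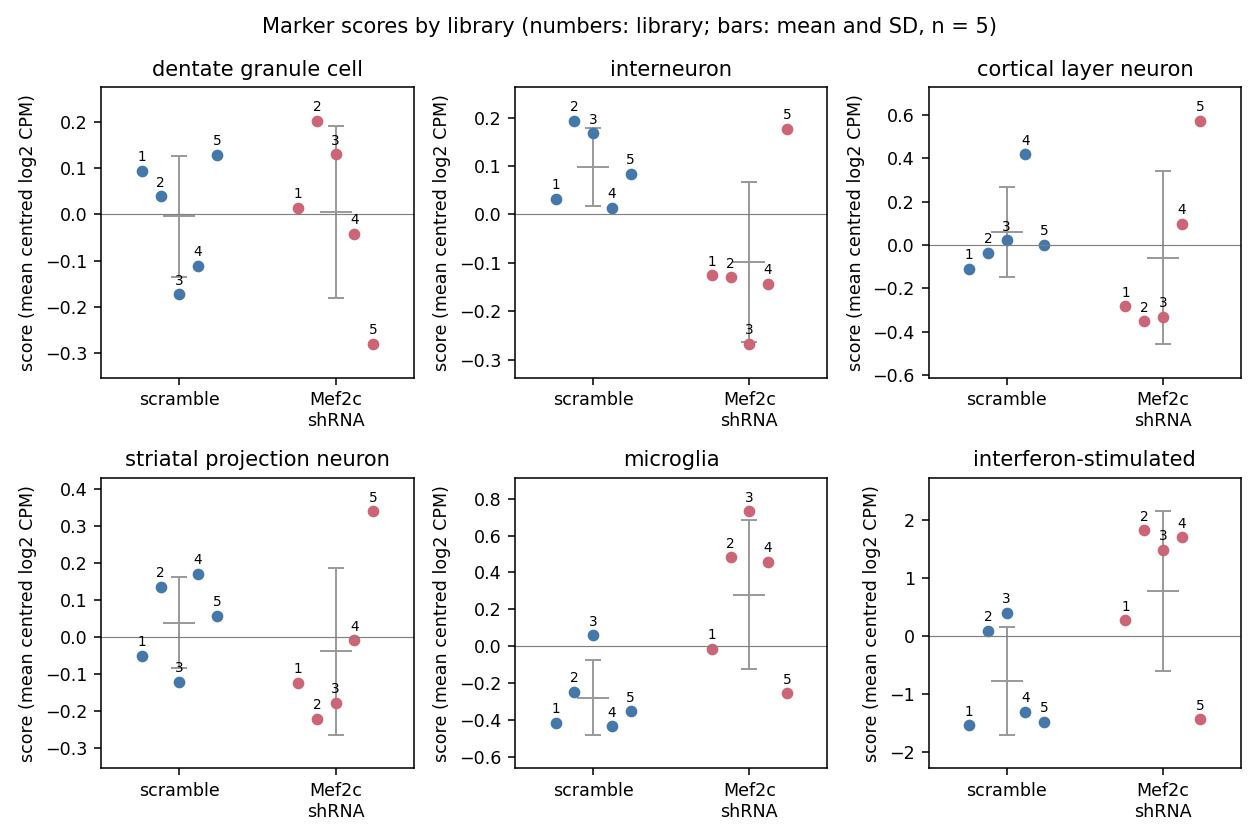
Scores of 6 marker lists (mean centred log2 CPM of the list) by library, numbered within group, with mean and SD (n = 5). Mef2c shRNA libraries 2, 3 and 4 are high in the microglia and interferon scores, and the library labelled Mef2c shRNA 5 lies within the scramble range in the interneuron, microglia and interferon scores.

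Variation within groups does not depend on the contrast, so it was tested: the log2 CPM of the 6 tested genes was set against 4 marker scores (dentate granule cell, interneuron, cortical layer neuron, microglia) after removing group means, over 10 libraries. None of the 24 relations passed a permutation test within groups after Benjamini-Hochberg adjustment, and 3 had an unadjusted p under 0.05. Oprl1 varied with the interneuron score (Pearson r = 0.733, permutation p = 0.0189, adjusted p = 0.275; Spearman rho = 0.746, permutation p = 0.00594, adjusted p = 0.143). It varied inversely with the microglia score (r = -0.826, permutation p = 0.0275, adjusted p = 0.275; rho = -0.770, permutation p = 0.0551, adjusted p = 0.323). Oprk1 varied inversely with the dentate score (r = -0.689, permutation p = 0.0344, adjusted p = 0.275; rho = -0.758, permutation p = 0.0264, adjusted p = 0.317). Without the 2 libraries farthest from the median score, r became 0.324, -0.603 and -0.678, and none of the 3 relations held at an unadjusted permutation p under 0.05. Oprd1 and Penk had no relation with any of the 4 scores at that level.

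For each of the 5 transcripts whose mean reached 2 CPM, the 3 genes most like it were taken from 12749 candidates by Pearson r of group-centred log2 CPM over the 10 libraries. Such top ranks among many genes are a description. Among those nearest to Oprd1 within groups were Nol4l (r = 0.941) and Mtmr3 (0.937), with log2 fold changes of their own of -0.11 and -0.12, far from that of Oprd1. Tmem165 (0.966) and Spsb1 (0.940) were among those nearest to Penk, and Spsb1 had a log2 fold change of 0.44. Dnajc28 (0.991), Tax1bp1 (0.945) and Gprasp1 (0.945) were nearest to Oprl1. Mat2b (0.971), Ing2 (0.942) and Tmem17 (0.927) were nearest to Pdyn, and Vta1 (0.926), Srm (0.903) and S100a1 (0.901) to Pnoc.

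Other genes of opioid peptide making, breakdown and signalling were read from a list of 101 genes in 8 roles, of which 97 were tested. Of these 97, 8 passed the edgeR test higher and 8 lower, against 12.3% of all genes, and their median log2 fold change was -0.06 against 0.02 over all genes. With the length and GC correction 1 was called: the lysosomal protease Ctsl, which can also cut opioid precursors, higher by 0.43 (SE 0.08, edgeR adjusted p = 0.0179). Ctsl was not among the 16 in the fit without the correction (0.23, adjusted p = 0.0528), so none of the 16 kept its call; it was chosen for naming after its values were seen. The count also rested on single libraries: leaving out scramble library 1, 2, 4 or 5 gave 6, 3, 4 and 2 calls, and leaving out Mef2c shRNA library 2, 3 or 4 gave 3, 7 and 5. Of the 16 called genes, Lnpep and Arrb2 kept their call whichever library was left out, and the other 14 lost it without at least 1. With the microglia score as a covariate 0 were called by edgeR, and 18 had an unadjusted p under 0.05.

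Among other opioid genes, 3 of 8 tested were called higher and 1 lower, against 4.66% and 7.61% of all genes tested. Pomc, the precursor of beta-endorphin and of several pituitary hormones, stood at 0.942, 1.21, 1.66, 0.804 and 1.03 CPM in scramble libraries 1 to 5 and at 1.03, 4.27, 3.64, 4.89 and 2.29 CPM in Mef2c shRNA libraries 1 to 5. As with Penk, Mef2c shRNA library 1 lay within the scramble range and the other 4 above it. Pomc thus rose by 1.51 on the log2 scale (SE 0.37), with an edgeR adjusted p of 0.0201. It was no longer called without scramble library 1, 2, 4 or 5 or Mef2c shRNA library 2 or 4, with adjusted p between 0.0526 and 0.0595, nor with the microglia score as a covariate (0.62, SE 0.40). Rtp4, a chaperone of mu and delta receptor pairs that is also on the interferon list, rose by 2.05 on the same scale (SE 0.52, edgeR adjusted p = 0.0351), and Ogfr, the unrelated opioid growth factor receptor, by 0.28 (SE 0.09, 0.0484). Opcml, an adhesion molecule named for opioid binding, fell by 0.24 (SE 0.06, 0.0281). With the length and GC correction Opcml stood at -0.0059 and Ogfr at 0.12, while Pomc (1.24) and Rtp4 (1.95) moved less.

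Of 14 precursor processing genes 1 was called higher and 2 lower, against 4.66% and 7.61% of all genes tested. Pcsk1n, which encodes an inhibitor of the prohormone convertase Pcsk1, rose from 539 ± 64.9 to 820 ± 224 CPM (edgeR adjusted p = 0.0451). Pam, the peptide amidating enzyme, fell from 189 ± 6.56 to 165 ± 4.77 CPM (0.0283), and the carboxypeptidase Cpd from 153 ± 4.13 to 119 ± 18.5 CPM (0.0273). The convertases Pcsk1 and Pcsk2 and the carboxypeptidase Cpe were tested and not called. Of 15 peptide breakdown genes 1 was called, lower, the aminopeptidase Lnpep. It went from 131 ± 10.4 to 98.4 ± 4.81 CPM (edgeR adjusted p = 0.00194). The log2 fold change of Lnpep went from -0.41 to 0.01 with the length and GC correction. Cpd likewise went from -0.36 to -0.07, whereas Pam went from -0.19 to -0.17 and Pcsk1n from 0.60 to 0.44. The enkephalin degrading peptidase Mme was not called.

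On the signalling side (log2 scale), 2 of 14 G protein subunit genes were called higher, against 4.66% of all genes tested. Gnai2 rose by 0.27 (SE 0.07, edgeR adjusted p = 0.0201) and Gnb2 by 0.25 (SE 0.07, 0.0416). Of 8 adenylate cyclase genes 1 was called, Adcy1, a calcium-stimulated form, which fell by 0.47 (SE 0.11, 0.0182). Of 5 tested channel genes 2 were called lower, against 7.61% of all genes tested. Kcnj6, a subunit of the potassium channels that opioid receptors open, fell from 45.4 ± 2.76 to 25.2 ± 9.01 CPM, and every Mef2c shRNA library (14.6 to 39.4) lay below every scramble library (42.8 to 49.8). The fitted difference of Kcnj6 was -0.85 on the log2 scale (SE 0.20, edgeR adjusted p = 0.0261), and -0.85 (SE 0.19, 0.0611) with the length and GC correction. Without any 1 of scramble libraries 2, 4 and 5 or Mef2c shRNA libraries 2, 3 and 4 it was not called, at -0.86 to -0.80. Cacna1b, the N-type calcium channel, fell by 0.36 (SE 0.09, 0.0235). Of 22 receptor kinases, arrestins and RGS proteins, 1 was called higher and 1 lower. Arrb2, which encodes an arrestin that uncouples opioid receptors, rose by 0.35 (SE 0.07, 0.00554). The receptor kinase gene Grk3 fell by 0.30 (SE 0.09, 0.0442). Of 11 transcription factors with known action on Penk or Pdyn, 1 was called, higher. This was Jund, at 0.43 (SE 0.11, 0.0222), while Creb1, Fos and Kcnip3 were not called. Unlike Kcnj6, the other called genes of this side shrank with the length and GC correction, Adcy1 to -0.13, Cacna1b to -0.08, Grk3 to -0.10, Gnai2 to 0.11, Gnb2 to 0.05, Arrb2 to 0.18 and Jund to 0.13.

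RefSeq promoter windows (GRCm38.p6, 250 bases before to 50 after a start site) were at hand for Oprd1, Oprm1, Oprl1 and Pdyn; Penk, Oprk1 and Pnoc have no entry. The single Oprd1 window was 79.3% G or C and held 43 CG dinucleotides, more than 97.4% of the 32851 windows of all genes, whose median was 7. The cyclic AMP response motif TGACGTCA, its variant TGCGTCA, the AP-1 motif TGANTCA and the MEF2 consensus were searched on both strands. None of them occurred in the Oprd1 window or in the windows of the other 3 genes. Across all windows they occurred in 1.79%, 2.12%, 7.81% and 3.19%.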

How the data were processed

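Gene counts of 10 libraries were used, grouped by sample title. The authors deposited whole-number gene counts, not normalized; the submitters' processing notes name HISAT2, featureCounts and mm10, and versions, strand and annotation are not stated in what was used. Symbols, coordinates and lengths came from GENCODE M21 (GRCm38, the same assembly), which matched 18445 of 18453 rows. After filterByExpr and TMM scaling, Mef2c shRNA was compared with scramble by edgeR 4.0.16 (R 4.3.3; quasi-likelihood, robust); the standard error is the fold change over the square root of F, and a call is an adjusted p (Benjamini-Hochberg, 14393 genes) under 0.05. A prior count of 2 entered log2 CPM. The length and GC correction fits natural splines with 5 degrees of freedom per library and enters them as offsets. Correlations used 100000 shuffles within groups. Within-group chi-square per degree of freedom between libraries was at least 3.85, so no library duplicated another of its group. Pairs of libraries from different groups were not compared in this way. The fit was tested on simulated counts of the Mef2c shRNA against scramble comparison (14298 genes) and called 61.6% of the 1.5-fold and 85% of the 2-fold changes put in. Each gene was drawn independently there, without variation shared between genes such as that of the marker scores. These shares therefore describe recovery in such counts only and say nothing of false calls in the real libraries. Members, lists and alternatives were chosen with earlier results of these data known. Named were the 7 members, Mef2c, up to 4 called genes per pathway role (smallest p, mean CPM no lower than 1), the 3 genes most like each member (some are not reported here), and markers. Protein sequences were not used here, so coding stretches of transcripts were searched instead, a choice made after seeing the reference. DESeq2 1.42.0, limma 3.58.1 (voom) and sva 3.50.0 served as alternatives.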

Additional observations from a re-analysis of the deposited data

Results flagged for a closer look

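In scramble library 1, Oprd1 stood at 11.8 CPM, apart from the other 4 scramble libraries at 14.2 to 14.5 CPM. The same library stood at 13.9 CPM in Penk, apart from the other 4 at 17.9 to 19.4 CPM. In each case the gap to the nearest library, as a share of the group's whole range (0.915 and 0.732), exceeded Dixon's critical value of 0.71 for 5 values. Of 14 groups examined 2 were set apart in this way, and chance sets apart about 1 in 20. Without that library the log2 fold change of Oprd1 was -0.92 (SE 0.13) and that of Penk 0.49 (SE 0.13), both still called.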

How the results depend on the processing

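Leaving out each library in turn kept the calls and directions of Oprd1 (log2 fold change -0.94 to -0.81) and Penk (0.49 to 0.67), and Pdyn and Pnoc kept their direction in all 27 alternatives. These fits reuse the values on which the family was selected, so kept calls are not further support. Leaving out 1 library moved the uncalled members by over 1.5 times: Pdyn from 0.13 (the library labelled Mef2c shRNA 5) to 0.32 (scramble library 4), Pnoc from -0.16 (scramble library 2) to -0.06 (scramble library 3), and Oprl1 from -0.14 (the library labelled Mef2c shRNA 5) to -0.03 (Mef2c shRNA library 3). Members called rose from 2 to 3 with no filter on low counts, Oprm1 being added, and fell to 1 with 1 surrogate variable, the length and GC correction, and the interneuron, microglia or interferon score as a covariate, and to 0 without Mef2c shRNA libraries 2, 3 and 4, where 0 genes of all tested and 0 pathway genes were called too (edgeR; 2590, 17 and 2 of all, pathway and member genes had an unadjusted p under 0.05). The cause was not tested. All genes called, 1766 in the report, numbered 3393 with limma-voom, 2841 with the cortical score, 3106 at an adjusted p under 0.10, 1029 without scramble library 4 and the library labelled Mef2c shRNA 5, 980 with the interferon score, 891 and 237 with the length and GC correction without and with Mef2c shRNA library 1, 608 with 1 surrogate variable (21.5% of them higher, against 38%) and 31 with the microglia score. Leaving out 1 library gave 631 (scramble library 2) to 3305 (Mef2c shRNA library 1). Pathway genes called, 16 in the report, numbered 31 with limma-voom, 24 at an adjusted p under 0.10, 6 with the interferon score, 5 and 1 with the length and GC correction without and with Mef2c shRNA library 1, 4 with 1 surrogate variable, 0 with the microglia score (18 at an unadjusted p under 0.05), and 2 to 23 leaving out 1 library. Upper quartile scaling moved the share of higher calls to 46.4%. Oprk1 (up to 0.205 leaving out 1 library) reversed to -0.133 without scramble library 5, to -0.017 and -0.119 without Mef2c shRNA libraries 4 and 5, and to -0.0773 without scramble library 4 and the library labelled Mef2c shRNA 5. Oprl1 reversed to 0.0818, 0.130 and 0.0394 with the interneuron, microglia and interferon scores and to 0.115 without Mef2c shRNA libraries 2, 3 and 4. Mef2c reversed to 0.135 with the microglia score and 0.0112 with the length and GC correction without Mef2c shRNA library 1, and Lnpep to 0.0121 and 0.0501 with that correction with and without that library. Per kb of the longest transcript, scramble levels were 12.16 for Oprl1, 12.03 for Penk, which exchanged their order, 5.82 for Pdyn, 0.372 for Oprm1 and 0.164 for Oprk1. The number of marker relations passing adjustment stayed at 0 with Spearman's rho and without the 2 extreme libraries.

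With the replicate number as a block, 1313 genes, 2 members (Oprd1 -0.88, Penk 0.55) and 11 pathway genes were called. Same-numbered libraries did not deviate together throughout (correlations of 0.239, 0.185, 0.403, -0.114 and 0.079 for numbers 1 to 5), so the numbers were not taken to pair the libraries. At about 1 to 20 counts per library, Oprm1 and Oprk1 are limited by depth.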
